A study of Mus musculus with 9 samples.

Results

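10 small apolipoprotein genes, Apoa1, Apoa2, Apoa4, Apoa5, Apoc1, Apoc2, Apoc3, Apoe, Apoh and Apom, were described in RNA immunoprecipitations from mouse liver. They were chosen by name, and all 10 of 10 were found among the 33732 gene names of the deposited exon table. The liver was whole healthy liver of wild-type C57BL/6 mice, 8 weeks old, and the labels name no further allele or treatment for any group. In RNA immunoprecipitation (RIP) a protein is pulled down with an antibody and the RNA that comes with it is sequenced. The study made 3 libraries with an antibody against HuR and 3 with IgG as the control, and 3 libraries of total lysate RNA, called Input. Pull-downs were native and each used a single liver, per the labels' protocols. Input is held only as the mean of its libraries, so it has no error. The series states that it looked for RNAs targeted by HuR in mouse liver.

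HuR is encoded by Elavl1. It binds RNA and holds U-rich and AU-rich stretches, mostly in 3′ untranslated regions (3′ UTRs), and it is known for affecting the stability and use of the RNAs it holds. Small apolipoproteins are secreted proteins, made in large amounts by hepatocytes, that coat lipoprotein particles and direct lipases, transfer proteins and receptors to them. Their mRNAs are short and several of the genes sit in clusters, Apoa1, Apoc3, Apoa4 and Apoa5 in one and Apoe, Apoc1 and Apoc2 in another.

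No member's 3′ UTR holds any of 4 letter patterns often used to mark HuR or AU-rich sites. They were searched on the mRNA strand with overlaps allowed, in 17801 protein-coding genes of the table that have a 3′ UTR in GENCODE M21. The run UUUUUUU is present in 39.5% of these genes, and in 6.71% of the 2667 genes whose 3′ UTR has 60 to 250 bases. For the pattern UUUAUUU the shares are 37.5% and 6.22%. For the pentamer AUUUA they are 64.8% and 19.9%. For its longer form UAUUUAU, which contains the pentamer, they are 27.5% and 4.09%. The members' 3′ UTRs run from 64 bases (Apoa1) to 271 bases (Apoe), except for Apoa5 with 1185 bases. Their median U content was 24.9%, against 29.0% over all these genes and 27.5% over those with a 3′ UTR of 60 to 250 bases. Absence of these letters says only that they are not in this annotated UTR.

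The U-richest run of 24 bases in the 3′ UTR is printed for the 9 members other than Apoa4, which had the lowest level in HuR RIP, so that its U content can be seen beside the last-exon values given further on. Sequences are from GENCODE M21 transcripts (GRCm38, also called mm10), read 5′ to 3′ with U in capitals. Apoa5 and Apoe each have a second line, the U-richest run inside a stretch of the 3′ UTR whose values are given further on (348 bases in Apoa5, 71 bases in Apoe).
Apoe, chr7:19696215-19696238, minus strand: UUcagccUcagUUUaUUgUUUUUU
Apoe, chr7:19696279-19696302, minus strand: UggcccUUgcUUaaUaaagaUUcU
Apoh, chr11:108414321-108414344, plus strand: UgUcgUaUUUgUaUUUcUgcUUgU
Apoa5, chr9:46271513-46271536, plus strand: UcUUUcUgUcUcUUUUccaUUcUU
Apoa5, chr9:46271019-46271042, plus strand: UggagUUgggcUccUgUUaaUUcU
Apoc3, chr9:46233196-46233219, minus strand: UUcUgUgUUgcagaUgUgccUgUU
Apom, chr17:35129008-35129031, minus strand: UcUcgUggaUaaUaaagaUgaUUU
Apoc2, chr7:19671639-19671662, minus strand: UgUcccagcUgcUcccgccUUccU
Apoa2, chr1:171226324-171226347, plus strand: cUcUcccUaccUUcUgccUgUUUU
Apoa1, chr9:46230432-46230455, plus strand: UUggcUUUcUUacaaUaaaccUUU
Apoc1, chr7:19689513-19689536, minus strand: gUaaUgUgccaggUcccUcUUcaU
The first Apoa5 and Apoe runs hold 15 and 14 U of 24, and Apoh also holds 14. Both first runs lie outside the stretches compared further on, and the runs inside them hold fewer U, 10 in Apoa5 and 9 in Apoe. Apoe has the longest unbroken run of U among the members, 6. The Apoc2 run holds 7 U.

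The library sizes behind the RPKM values (reads scaled by exon length and library size) were 26.3 to 26.9 M reads (M, mega) in the HuR libraries and 15.9 to 28.8 M reads in the IgG libraries. Listed exons held 27.9% to 60.5% of them. The table's headers mark HuR 3 and IgG 3 with F and the other RIP libraries with M, while Xist, which is transcribed from an inactive X chromosome, was at 10.2 RPKM in HuR 2 and at or below 0.463 RPKM in the other RIP libraries. Mup10, a male-biased liver gene, was at 30.4 RPKM in HuR 2, against 358 and 625 RPKM in HuR 1 and 3. The library headed HuR 2 (M) therefore goes against its header letter by both genes. HuR 3 (F) goes against its letter by Mup10, while its Xist lay far below HuR 2 but above HuR 1. The letter of HuR 3 is thus not settled, and the labels give no sex. Whether columns HuR 2 and HuR 3 are exchanged does not alter an unpaired comparison of the groups. It would alter the results by replicate number given at the end. All 8 hepatocyte markers were tested, with a summed level of 726 to 775 RPKM with the HuR antibody, 211 to 529 RPKM with IgG and 616 RPKM in Input. Cholangiocyte markers (2 of 5 tested, none at 0 in every RIP library) summed to 3.78 to 13.1 RPKM with the HuR antibody. Their sum was 0.0343 to 0.662 RPKM with IgG and 0.448 RPKM in Input. Stellate cell markers (3 of 6 tested, none at 0 in every RIP library) summed to 4.24 to 12.8 RPKM with the HuR antibody. Their sum was 0.565 to 4.43 RPKM with IgG and 1.54 RPKM in Input. Kupffer cell and macrophage markers summed to 4.83 to 11.99 RPKM with the HuR antibody, 2.71 to 8.47 RPKM with IgG and 5.14 RPKM in Input. Sinusoidal endothelium markers summed to 2.19 to 6.22 RPKM with the HuR antibody, 0.597 to 4.65 RPKM with IgG and 1.91 RPKM in Input. Red blood cell markers summed to 64.5 to 172 RPKM with the HuR antibody, 98.7 to 234 RPKM with IgG and 68.9 RPKM in Input. Intestine markers summed to 0 to 1.21 RPKM with the HuR antibody, 0 to 0.895 RPKM with IgG and 0.287 RPKM in Input. Among these other cell types, the HuR and IgG sums overlap in every list except that of cholangiocytes. The part of these other cell types in the results was not tested.

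Of the members, Apoc2 and Apoc3, which act in opposite directions on lipoprotein lipase, had the highest fold changes of HuR over IgG, 2.16 and 2.01 on the log2 scale, and Apoe the lowest, -0.01. Apoa2 and Apoa5 followed at 1.36 and 1.30. None of these differences passed the test. The HuR and IgG libraries were compared with limma on log2(RPKM + 0.5), two-sided, with Benjamini-Hochberg adjustment over 5510 genes, all 10 members among them. Fold changes are on that scale, which understates the change of low genes. HuR 2 goes against its header letter by Xist and Mup10, and HuR 3 by Mup10. Without HuR 2, 0 members were called and Apoc2, Apoc3, Apoa2 and Apoa5 were at 2.12, 2.40, 1.41 and 1.30. Without HuR 3, 0 members were called as well, and these genes were at 1.97, 1.76, 1.45 and 1.16. Directions were checked under centring of each library at its median, TMM-like scaling and quantile normalization. No member passed an adjusted p of 0.05, against 0.672% of all tested genes called higher (37), 0.127% called lower (7) and 0.799% in either direction. Only Apoc2 had an unadjusted p under 0.05, against 1539 higher and 176 lower genes among all tested. The members' median fold change was 0.87 on the log2 scale, against 0.92 for all tested genes, and 5 of 10 were above that median. Over the 3943 tested protein-coding genes alone the median was higher, 1.08. The whole set of genes was shifted by 0.92, so a member near this value lies with the typical gene. In 3 of 10 members every HuR library was above every IgG library (Apoa2, Apoa5 and Apoc3), against 31.3% of all tested genes. Among the tested protein-coding genes, 1532 of 3943 were so. In 0 of 10 every HuR library was below, against 3.48%. With array quality weights 4 members were called (Apoa2, Apoa5, Apoc2 and Apoc3), but 2296 of all tested genes were called higher as well. The libraries are bulk RNA from 1 liver each, so fewer cells of a type and less RNA per cell cannot be told apart.

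**Figure D1:**
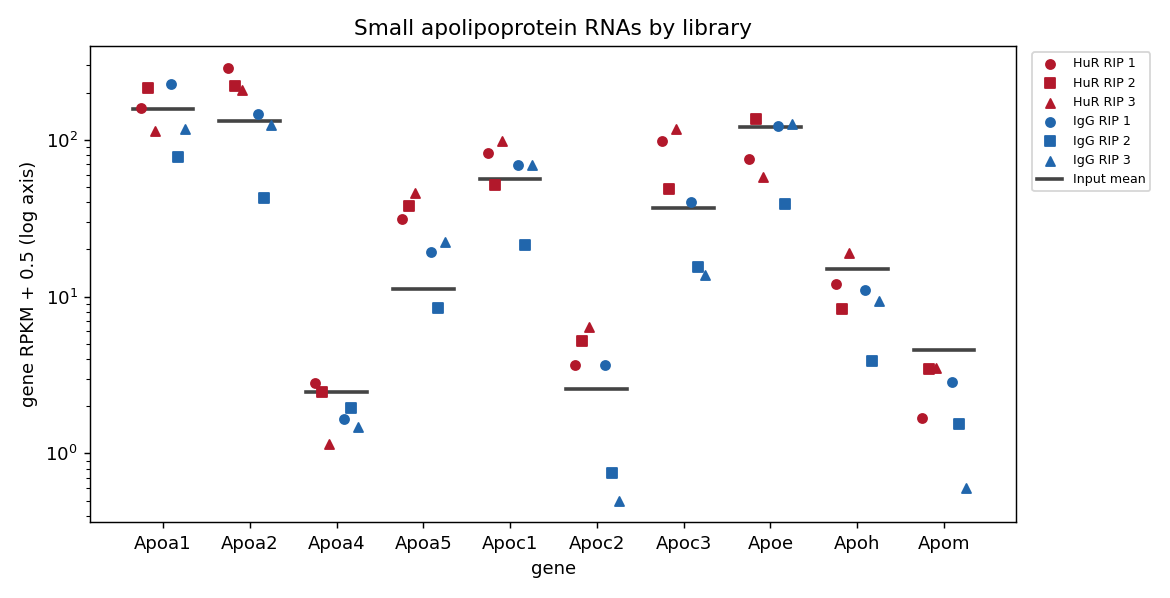
Gene RPKM plus 0.5 (log axis) of each member in 3 HuR RIP libraries (red), 3 IgG RIP libraries (blue) and the Input mean (bar). Apoa2, Apoa5 and Apoc3 have all red points above all blue points, and Apoc2 is at 0 in IgG 3.

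The order of the levels in HuR RIP was Apoa2, Apoa1, Apoe, Apoc3, Apoc1, Apoa5, Apoh, Apoc2, Apom and Apoa4, by mean RPKM, a value per length. Means ran from 239 ± 43.8 RPKM (SD, n = 3) for Apoa2 to 1.64 ± 0.885 RPKM (SD, n = 3) for Apoa4. Apoe, Apoc3 and Apoc1, at 89.6 ± 41.3, 88.0 ± 35.9 and 77.0 ± 23.5 RPKM (SD, n = 3), did not differ beyond their spread. In Input the order began with Apoa1 at 156 RPKM, Apoa2 at 132 RPKM and Apoe at 120.3 RPKM.

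Among the members that build high-density lipoprotein, Apoa1, its main structural protein and activator of Lcat, was at 159.5, 215 and 113 RPKM with the HuR antibody (libraries 1, 2 and 3), against 228, 77.5 and 117 RPKM with IgG (libraries 1, 2 and 3). These groups overlap, and the fold change was 0.30 (SE 1.06, limma Benjamini-Hochberg adjusted p = 0.843), negative under centring and TMM-like scaling. Apoa2, the second protein of these particles, was at 289, 219 and 208 RPKM with the HuR antibody, against 147, 42.1 and 124 RPKM with IgG. These groups do not overlap. The fold change was 1.36 (SE 1.06, limma Benjamini-Hochberg adjusted p = 0.359), but negative under TMM-like scaling (-0.26). Apoa4, a lipid-binding protein made also by the intestine, was at 2.33, 1.96 and 0.645 RPKM with the HuR antibody, against 1.16, 1.45 and 0.984 RPKM with IgG. Its groups overlap, with a fold change of 0.24 (SE 0.72, limma adjusted p = 0.816), negative under centring, TMM-like scaling and quantile normalization. With the reads split to the overlapping antisense model Gm10680 added, it was 0.33 (limma adjusted p = 0.769).

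Among the members that set how fast triglyceride is removed, Apoc2, the activator of lipoprotein lipase, was at 3.14, 4.73 and 5.93 RPKM with the HuR antibody, against 3.17, 0.248 and 0 RPKM with IgG. IgG 1 reaches into the range of the HuR libraries. The fold change was 2.16 (SE 0.82, limma Benjamini-Hochberg adjusted p = 0.099), and positive under all 19 alternatives. Without IgG 1 it was called at 3.02 (adjusted p = 0.0427), and with protein-coding genes alone tested it was called as well (adjusted p = 0.0373). In those settings 724 and 728 genes in all were called higher. It was 1.58 without IgG 3 (limma adjusted p = 0.27), 1.87 without IgG 2 (0.286), 1.06 under centring (0.371) and 1.35 under TMM-like scaling (0.334). Apoc2 shares its exons with the model Gm44805, and reads that overlap both are split between them. With those reads added, the fold change was 2.46 (limma adjusted p = 0.0878). Apoc3, an inhibitor of lipoprotein lipase and of the uptake of remnant particles, was at 98.5, 48.0 and 117 RPKM with the HuR antibody, against 39.9, 14.9 and 13.3 RPKM with IgG. Its groups do not overlap, the lowest HuR value lying above the highest IgG value. The fold change was 2.01 (SE 1.03, limma adjusted p = 0.18), positive under all 18 alternatives. Apoa5, which raises lipolysis, was at 30.9, 37.2 and 45.2 RPKM with the HuR antibody, against 18.7, 8.01 and 21.8 RPKM with IgG. Its groups do not overlap. The fold change was 1.30 (SE 0.98, limma adjusted p = 0.345), negative only under TMM-like scaling (-0.29). Apoc1, an inhibitor of lipid transfer and of lipolysis, was at 82.0, 51.4 and 97.7 RPKM with the HuR antibody, against 68.8, 20.8 and 68.8 RPKM with IgG. Its groups overlap, with a fold change of 0.68 (SE 1.05, limma adjusted p = 0.644), negative under centring and TMM-like scaling.

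Apoe, the ligand by which remnant particles are taken up into liver cells, was at 74.6, 136 and 57.9 RPKM with the HuR antibody, against 123, 38.3 and 126 RPKM with IgG. Its groups overlap, and the fold change was -0.01 (SE 1.07, limma adjusted p = 0.997), the lowest of the members. It was -1.11 under centring, -1.63 under TMM-like scaling and 0.12 under quantile normalization. Apom, a carrier of sphingosine-1-phosphate in high-density lipoprotein, was at 1.19, 2.96 and 3.01 RPKM with the HuR antibody, against 2.37, 1.04 and 0.103 RPKM with IgG. Apoh, also called beta-2-glycoprotein I, binds negatively charged phospholipids. It was at 11.5, 7.85 and 18.6 RPKM with the HuR antibody, against 10.5, 3.37 and 8.89 RPKM with IgG. In both genes the groups overlap, with fold changes of 0.98 for Apom (SE 0.77, limma adjusted p = 0.361) and 0.75 for Apoh (SE 0.88, adjusted p = 0.534), negative under centring, TMM-like scaling and quantile normalization.

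**Figure D2:**
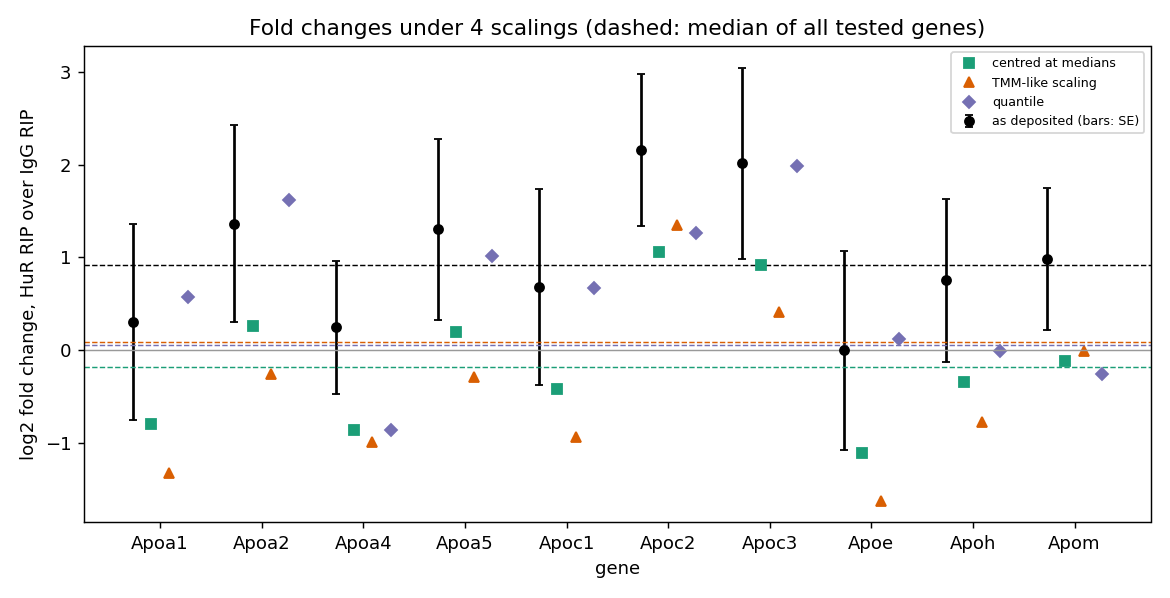
Log2 fold change, HuR RIP over IgG RIP, of each member as deposited (black, bars are SE) and under 3 other scalings, with the median of all tested genes as dashed lines. Apoc2 and Apoc3 stay above 0 under each scaling shown, and the other members do not.

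Against Input, all 3 HuR libraries were above the Input mean for 4 of 10 members (Apoa2, Apoa5, Apoc2 and Apoc3), against 68.9% of tested genes and 76.1% of tested protein-coding genes. After centring each library at the median of tested genes, 1 of 10 was (Apoa5), against 21.7% of tested genes and 20.8% of tested protein-coding genes. No test was possible because Input is a mean. Within each library, members were ranked among 18358 protein-coding genes. Apoa1 was at position 28, 9 and 37 in HuR 1, 2 and 3, at 13, 9 and 10 in IgG 1, 2 and 3, and at 3 in Input. Apoe was at 58, 13 and 61 in HuR RIP, at 21, 18 and 8 in IgG RIP and at 5 in Input. Apoc3 was at 38, 59 and 35 in HuR RIP, at 62, 48 and 100 in IgG RIP and at 35 in Input. In 0 of 10 members did every HuR rank lie above, or every one below, the IgG ranks, against 14.9% and 7.38% of tested protein-coding genes. The exact two-sided permutation test of each member gave p from 0.2 to 1, and 0.1 is the smallest that 3 against 3 libraries allow. Ranked among all genes, 2 members (Apoa2 and Apoc3) were above in every HuR library, against 17.2% of the 5510 tested genes.

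The reads were also compared by their place along the mRNA. The share of a gene's reads in its last exon, which holds the 3′ UTR, was computed on the main transcript. It was 98.2%, 92.9% and 97.1% for Apoa2 in HuR 1, 2 and 3, and 81.5%, 70.6% and 79.3% in IgG RIP, with 71.5% in Input. For Apoa1 it was 90.6%, 93.9% and 94.9% in HuR RIP and 79.1%, 81.9% and 90.1% in IgG RIP, with 72.6% in Input. For Apoc1 it was 69.9%, 53.5% and 80.5% in HuR RIP and 49.5%, 43.3% and 25.9% in IgG RIP, with 43.9% in Input. Apom stood further apart, with 100%, 84.8% and 96.3% in HuR RIP and 2.63%, 39.3% and 0% in IgG RIP, with 8.15% in Input. In these 4 of 10 members the groups do not overlap (exact two-sided permutation p = 0.1, n = 3 and 3, the smallest possible), against 22.7% of 2760 tested genes with a share in every library. The share was also taken over the last 500 exonic bases, but last exons longer than 500 bases were kept as they were. By this share 2 members were above (Apoa1 and Apoc1), against 21.4% of the same 2760 genes. The last exon of Apoa1 has 662 bases, so its share is the same one again. The groups overlap for Apom (exact two-sided permutation p = 0.2) and Apoa2 (exact p = 1). The Apoa2 transcript has 518 bases, so 500 bases take in nearly all of it and cannot set its last exon apart. The shift was general: the median share over 3859 tested protein-coding genes was 88.9%, 71.5% and 88.7% in HuR RIP and 54.7%, 44.5% and 30.03% in IgG RIP, with 44.3% in Input. The other 6 members overlap between groups. Apoc2 had no read in IgG 3, and Apoa5 lay between 91.7% and 100% in every RIP library, its last exon making up 85.6% of its transcript.

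**Figure D3:**
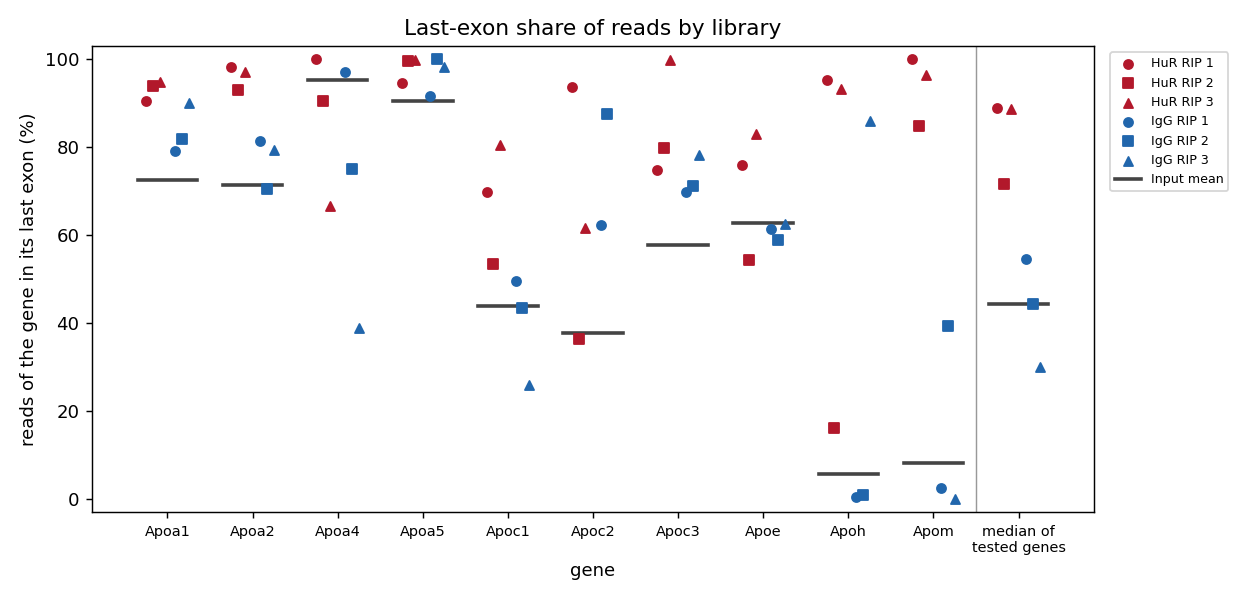
Share of each member's reads in its last exon (%), by library, with the median over tested protein-coding genes at the right. HuR RIP (red) lies above IgG RIP (blue) without overlap in Apoa1, Apoa2, Apoc1 and Apom, and the median of tested genes shows the same order.

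Apom and Apoh were the members with the largest gap between the last exon and the rest. In Apom, the last exon (exon 6, 139 bases) was at 8.65, 18.3 and 21.1 RPKM with the HuR antibody, at 0.454, 2.97 and 0 RPKM with IgG and at 2.41 RPKM in Input. It rests on 32, 67 and 79 reads in HuR RIP and 1, 11 and 0 in IgG RIP. Exons 2 and 3 of Apom had 0 reads in every RIP library, and exon 5 had 0 reads in each HuR library. In Apoh, the last exon (exon 8, 157 bases) was at 83.1, 9.68 and 131 RPKM with the HuR antibody, against 0.402, 0.239 and 57.9 RPKM with IgG, with 6.24 RPKM in Input. HuR 2 and IgG 3 cross, so the Apoh groups overlap. A limma fit on last-exon log2(RPKM + 0.5), added after the data were seen, called 29.6% of 3220 genes higher and among them Apoh at 3.83 (SE 1.34, Benjamini-Hochberg adjusted p = 0.0397) and Apom at 3.71 (SE 0.98, adjusted p = 0.0195). The Apoh call was lost without HuR 1, HuR 3, IgG 1 or IgG 2 (adjusted p from 0.0629 to 0.235), and the Apom call without HuR 3, IgG 2 or IgG 3 (0.0549 to 0.103), where its fold change was 3.47, 4.49 and 3.09 and 245, 0 and 101 genes in all were called higher. The ratio of the last exon to upstream exons, fitted likewise with limma, called 3.6% of 3859 genes higher and Apom alone among the members, at 4.68 (SE 0.995, adjusted p = 0.0485). Without HuR 1, HuR 3, IgG 1, IgG 2 or IgG 3 that call was lost (0.0770 to 0.145). The Apom fold change was then 3.91 to 5.52, and of all 3859 genes 2 were called without IgG 3 and 0 in each of the other 4 settings. Such gaps were not particular to Apom. With all libraries, Alb, Ttr and Apob were at 5.66, 3.50 and 2.36 on last-exon RPKM (limma adjusted p = 0.00990, 0.0188 and 0.0469). On the ratio Alb, Ttr and Apob were at 6.39, 4.77 and 0.60 (limma adjusted p = 0.0485, 0.0574 and 0.628).

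**Figure D4:**
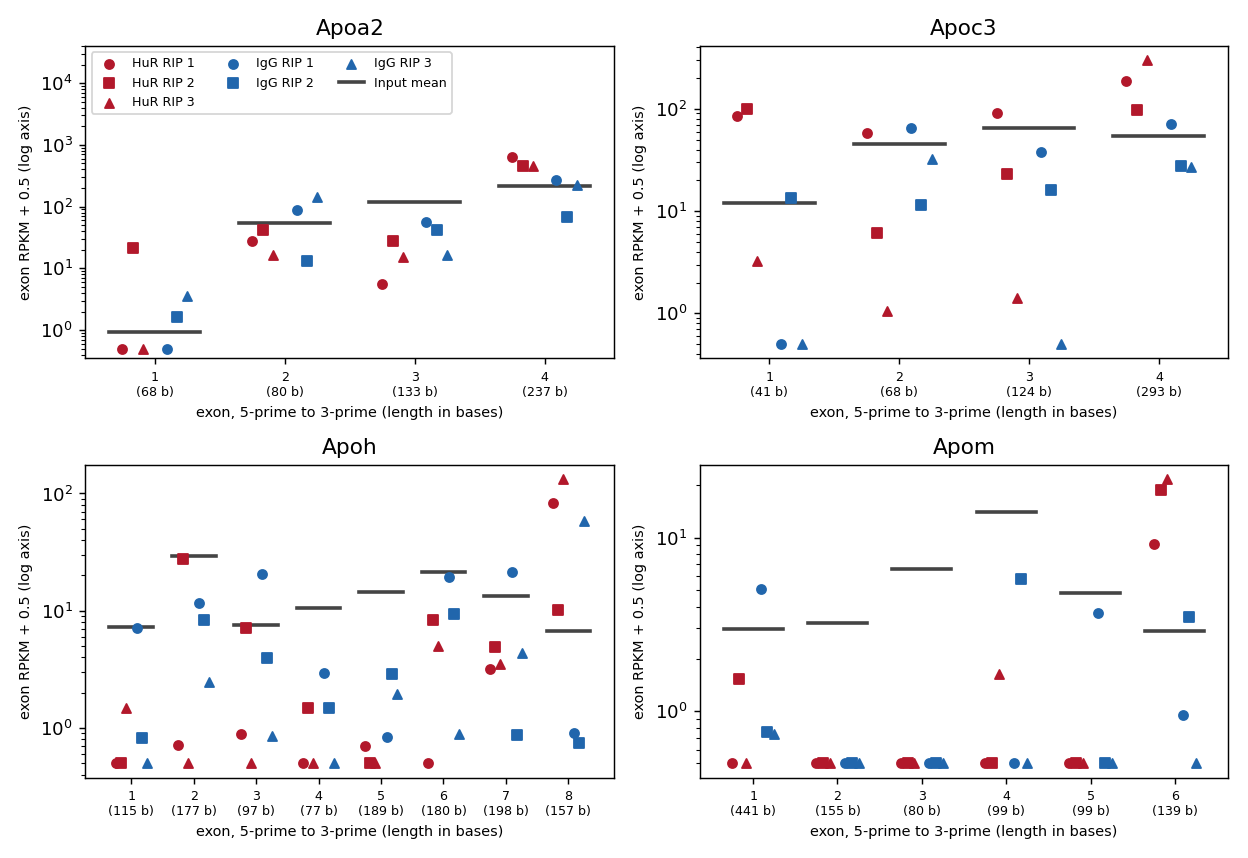
Exon RPKM plus 0.5 (log axis) along the main transcripts of Apoa2, Apoc3, Apoh and Apom by library, with exon lengths in bases and Input as a bar. In Apom the last exon is the one where HuR RIP is high, while exons upstream are at 0 or low in every HuR library.

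Apoa5 has the longest 3′ UTR of the members, and its reads were dense in 1 stretch of it. The stretch chr9:46271018-46271365 (348 bases, 16.2% of the exon) is also listed as an exon of the antisense model Gm47544, and was singled out after its values were seen, so it has no test. Reads of the 2 strands cannot be told apart there, since they are split over 3 listed lines. Summed over these lines, it was at 187, 189 and 272 RPKM with the HuR antibody, at 79.9, 26.3 and 97.7 RPKM with IgG and at 25.5 RPKM in Input. It took 66.7%, 56.5% and 65.0% of the exon's reads in HuR RIP and 51.2%, 37.9% and 50.4% in IgG RIP, with 31.7% in Input, and these groups do not overlap. The rest of the exon was at 18.0, 28.0 and 28.2 RPKM with the HuR antibody, against 14.7, 8.30 and 18.5 RPKM with IgG, which overlap. A coding stretch of the same exon, chr9:46270199-46270569, had the opposite order, at 0.0760, 0.819 and 1.03 RPKM with the HuR antibody, against 5.11, 2.33 and 8.96 RPKM with IgG. The authors' deposited table gives it a p of 0.0329. Beside it, the coding stretch chr9:46270151-46270197 was at 0, 1.35 and 0 RPKM with the HuR antibody, against 15.1, 7.24 and 35.5 RPKM with IgG. Its p in the authors' deposited table, 0.0113, is the lowest of any member exon, with a q of 0.541. The values of both coding stretches are each from a single listed line and, unlike those of the 348-base stretch, were not summed over overlapping lines. With Gm47544 reads added, the Apoa5 fold change was 1.36 (limma adjusted p = 0.332).

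**Figure D5:**
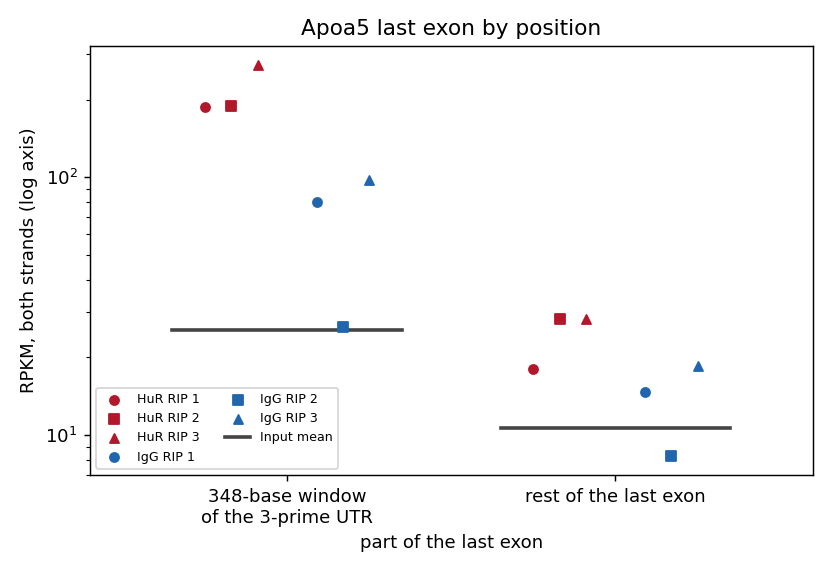
RPKM of both strands (log axis) in the 348-base stretch of the Apoa5 3′ UTR and in the rest of the last exon, by library. The HuR libraries are at 187 to 272 RPKM in the stretch, above the IgG libraries at 26.3 to 97.7 RPKM.

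Within Apoe, whose whole-gene values overlap between the groups, a listed stretch of 71 bases in the 3′ UTR, chr7:19696267-19696337, was at 227, 54.8 and 199.6 RPKM with the HuR antibody, at 24.5, 1.27 and 5.67 RPKM with IgG and at 31.8 RPKM in Input. These groups do not overlap. It was singled out after its values were seen. The authors' deposited table gives it a p of 0.0316 and a q of 0.541. Values of this stretch and of the Apoe stretches that follow are each from a single listed line. Reads that overlap several lines are split between them, so these values are not on the scale of the summed whole-gene values. Near the other end of the gene, the listed stretch chr7:19699011-19699052 in exon 1 was at 40.3, 22.7 and 9.85 RPKM with the HuR antibody, against 7.21, 0.893 and 3.63 RPKM with IgG, with 7.61 RPKM in Input, and the authors' deposited table gives it a p of 0.0452. The listed stretch chr7:19698972-19699008, which lies outside the exons of the main transcript, was at 64.0, 24.3 and 10.4 RPKM with the HuR antibody, against 3.41, 0 and 0 RPKM with IgG, with 2.56 RPKM in Input, and the authors' deposited table gives it a p of 0.0169. In both the groups do not overlap either. All the named Apoe stretches were taken from the member exons with the lowest deposited p, so this partly follows from the choice. Other listed stretches of Apoe are not described, so these values do not show where along the gene such stretches lie. In the authors' deposited table, 12 of 96 member exons with a p had one under 0.05 in either direction, against 2.29% of 136082 exons. The lowest q of a member exon in the authors' deposited table was 0.541, and the lowest in that whole table was 0.110. Listed exons of 1 gene overlap and share reads, so these 12 are not independent. The 136082 exons were not filtered by level, and member exons were not set beside exons of like level.

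The genes whose pattern over the 6 RIP libraries was most like the mean of the 10 members were Aldh6a1, Serpina1d, Fgb, Arf5 and Tram1, with Pearson's r of 0.99 each, among 449 protein-coding genes averaging 5 RPKM or more. The median over those genes was 0.84. These are descriptions over 6 libraries, and the genes of a library share its depth and its pull-down. Members themselves ranged from 0.09 (Apoa4) to 0.93 (Apoa2).

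Other genes of lipoprotein metabolism were taken from a list of 40, of which 35 were tested. By limma 1 was called higher and 0 lower, the median fold change was 1.25, and 23 of 35 were above the median of all tested genes. That median was 0.92, and it was 1.08 over the tested protein-coding genes. Apob, the large structural protein of very-low-density lipoprotein, and Mttp, which loads it with lipid, had fold changes of 1.87 (adjusted p = 0.192) and 1.87 (adjusted p = 0.118). Apof, an inhibitor of lipid transfer, was at 2.51 (adjusted p = 0.0888). Apoc4, the neighbour of Apoc2, was at -0.44, Lcat at -1.02 and Lipc at -0.29. Pltp was at 1.47, Abca1 at 1.08 and Scarb1 at 0.30. For reference, Alb was at 0.88, Ttr at 0.49 and Elavl1 at 0.88, none of them called. The signs of Abca1, Scarb1, Alb, Ttr and Elavl1 turned under at least 1 of the 3 other scalings.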

How the data were processed

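The deposited table gives, per listed exon and library, RPKM values computed by the authors, with log2 fold values, a p-value and a q-value by the authors. The submitters' processing notes name Bowtie2, featureCounts and mm10. Tool versions and the test behind the authors' p-value and q-value are not stated in the sources used. RPKM values from 1 upwards were deposited with the decimal point missing. Each was restored from its digits through the authors' log2 fold columns, and all 138826 distinct value lines matched in all 6 folds. The authors' fold columns count libraries in file order, so HuR 2 and HuR 3 are swapped there, and the names of the RPKM columns were used.

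Reads overlapping several listed exons are split between them, as the values show, and strand was not kept apart there. Exon values times length were summed per gene and divided by the merged exon length. Gene sums were whole reads within 0.05 read for 84.9% to 89.0% of genes. A count model was not used, since listed exons share reads. GENCODE M21 (GRCm38) holds 99.3% of the distinct exons at identical positions. The main transcript is the APPRIS principal one. The last-exon fits and the reads of overlapping models were added after the data were seen.

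Genes with 0.5 RPKM or more in at least 3 of 6 RIP libraries were tested with limma 3.58.1 (trend, robust) in R 4.3.3, with a pseudocount of 0.5, and the script was tested on simulated data. Alternatives were other scalings, filters, pseudocounts, moderation, weights, a replicate block and leaving out libraries. The 10 members, the lists, the tests and the named genes (all members, lipoprotein genes, of which some are not reported here, Alb, Ttr and Elavl1, overlapping models and the 5 genes most like the members) were chosen with earlier results of these data known. Xist, Mup10 and the stretches of Apoa5 and Apoe were named after their values were seen. Input is deposited only as a mean over its libraries and was left out of the fits. Figures were drawn with matplotlib 3.10.9.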

Additional observations from a re-analysis of the deposited data

How the results depend on the processing

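Results were recomputed under each alternative by limma. Of all tested genes, 37 were called higher and 7 lower as deposited. Centring gave 1 and 18, TMM-like scaling 50 and 342, quantile normalization 5 and 4, a filter of 1 RPKM 145 and 21, a pseudocount of 1 gave 3 and 1, array quality weights 2296 and 84, and protein-coding genes alone 728 higher. No filter, no trend and robust moderation, and leaving out HuR 3 and IgG 1 together gave 0 and 0. Leaving out each library in turn gave 0 to 724 higher and 0 to 35 lower. Members called higher, 0 as deposited, were 4 with array quality weights (Apoa2, Apoa5, Apoc2 and Apoc3), 1 with protein-coding genes alone and 0 to 1 when a library was left out. Of the lipoprotein list, 0 were called higher under centring, TMM-like scaling, quantile normalization, no filter, pseudocounts of 0.1 and 1, no trend and without HuR 3 and IgG 1, against 20 higher and 1 lower with weights, 7 with protein-coding genes alone and 0 to 10 when a library was left out.

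Whether the replicate numbers pair the samples is not settled by these data. The correlations of same-numbered deviations were 0.138, 0.117 and 0.0860, against -0.0891 to -0.00149 between different numbers. Each library correlated best with its own number, though weakly. These correlations and the replicate block rest on the numbers of HuR 2 and HuR 3 as headed. With the number as a replicate block, the whole-gene fit called 0 genes higher, 0 lower and 0 of the lipoprotein list. On last-exon RPKM the block called 1053 of 3220 genes higher, among them Apoh and Apom (limma adjusted p = 0.0149 and 0.0135). On the last-exon ratio it called 113 of 3859 genes higher, of the members Apom alone (limma adjusted p = 0.0426). Members above Input were 4, and 1 after centring (4 to 5 without a library). Ranks gave 0 members above, 2 among all genes (0 to 1 above and 0 to 2 below without a library). The last-exon share gave 4 members (4 to 6 without a library). It gave 2 with the last 500 bases, where last exons longer than that were unchanged. Last-exon calls were 2, Apoh and Apom (0 to 3 without a library, and not always these genes). Without HuR 3 and IgG 1 the call was 1, Apoc2 (limma adjusted p = 0.0420), with 1071 genes in all called higher. Apom and Apoh were not called there (limma adjusted p = 0.0723 and 0.436). The ratio gave 1, and 0 without HuR 3 and IgG 1 (0 to 1 without a library).

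Fold changes turned sign as follows, and the cause was not tested. Under centring: Apoa1 -0.80, Apoa4 -0.86, Apoc1 -0.42, Apoh -0.35, Apom -0.12, Abca1 -0.025, Alb -0.22, Elavl1 -0.22, Scarb1 -0.80 and Ttr -0.61. Under TMM-like scaling: Apoa1 -1.33, Apoa2 -0.26, Apoa4 -0.99, Apoa5 -0.29, Apoc1 -0.94, Apoh -0.78, Apom -0.016, Alb -0.75, Scarb1 -0.68 and Ttr -1.12. Under quantile normalization: Abca1 -0.075, Apoa4 -0.86, Apoe 0.12, Apoh -0.015, Apom -0.26 and Scarb1 -0.64. With weights: Apoa4 -0.019, Apoc4 0.50, Apoe 0.64 and Lipc 0.18. Without HuR 3 and IgG 1, Apoe was 0.53. Without 1 library, Apoa1 ran from -0.059 to 0.72, Apoa4 from -0.0092 to 0.64, Apoe from -0.57 to 0.29, Lipc from -0.81 to 0.54, Scarb1 from -0.029 to 0.48 and Ttr from -0.079 to 0.80. Low members rest on few reads, which limits the precision of Apoc2, Apom and Apoa4.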
